A study of Rattus norvegicus with 6 samples.

Results

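ER-associated degradation (ERAD) is the route by which cells clear misfolded proteins from the endoplasmic reticulum (ER), and its messenger RNAs were followed here in cultured primary rat hepatocytes. The genes were Herpud1, Sel1l, Syvn1, Edem1, Edem2, Derl1, Derl2, Derl3, Os9 and Selenos, chosen by their role in this route and with earlier results of the same comparison, such as the difference of Herpud1, known. A gene was represented by the probe set annotated with its symbol, selected on the highest mean signal where there were several. 8 of the 10 had such a probe set, 1 each, among 15037 named genes measured, and Edem1 and Derl2 were not analysed here. The hepatocytes came from the livers of 8-week-old male Sprague-Dawley rats and were plated on collagen in William's E medium with serum. 3 arrays held RNA of untreated cells (Control), and 3 held RNA of cells given trimethylamine N-oxide (TMAO), a metabolite of dietary choline, at 50 µM for 30 h. A biological repeat is a separate sample in the labels, and nothing in them says whether repeats came from different animals, so p-values measure only the spread between these arrays.

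ERAD starts in the ER lumen, where EDEM proteins trim mannose from the glycans of proteins that fail to fold and lectins such as OS9 read the trimmed glycan. The client is handed to SEL1L, the adaptor of the membrane-bound ubiquitin ligase SYVN1, also called HRD1, and HERPUD1 is a ubiquitin-like partner of that ligase. Derlins and SELENOS link the membrane complex to the cytosolic ATPase VCP, which pulls the ubiquitinated client out for destruction by the proteasome. Secretory cells such as hepatocytes carry a heavy load of ER clients, and several ERAD genes are known targets of the unfolded protein response (UPR).

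Within this pathway the TMAO cells had higher signals for part of the ligase complex. Herpud1 rose 3.49-fold and passed the test across all genes. Sel1l had a 1.70-fold, Selenos a 1.33-fold and Syvn1 a 1.28-fold higher mean, and in these 3 genes the groups did not overlap, but none of the 3 passed. For Derl3, Edem2, Derl1 and Os9 the groups overlapped and the mean difference was at most 1.16-fold. Of the 8 measured members 1 passed an adjusted p of 0.05 in limma's moderated test over all genes, where 0.0266% of all genes passed with a higher mean. 2 members, Herpud1 and Sel1l, were past both 1.5-fold and an unadjusted p of 0.05, as were 0.579% of all genes with a higher mean. All 8 had a higher mean, against 49% of all genes, and the count was 7 without Control replicate 3, where Os9 turned, or without TMAO replicate 3, where Edem2 turned. In 4 members all TMAO arrays lay above all Control arrays, against 5.51% of all genes. Their median difference was 0.28 on the log2 scale, against -0.0035 over all genes. Since the members were chosen with results of this comparison known, these counts describe them and are no test of the group.

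The arrays were alike in overall signal, with median log2 signals between 5.53 and 5.61. TMAO replicate 3 lay apart from the other 5 along the leading principal component (30.8% of the variance), and it had the highest mean signal of the hybridisation controls (9.59, against 9.04 to 9.38). Of 12 measured hepatocyte markers 11 exceeded the median of the 1153 negative control probe sets by 1 log2 unit or more on average, and the log2 of their summed signal ran from 13.74 to 13.94 in Control and from 13.66 to 13.88 under TMAO. Of the markers of other cells 5 of 10 for macrophages, 1 of 7 for endothelial cells, 5 of 9 for stellate cells and fibroblasts, 4 of 6 for cholangiocytes and 0 of 5 for lymphocytes lay that far above the negative controls. 9 of the 10 macrophage markers had a lower mean in TMAO cells (median difference of -0.11, which became -0.27, -0.26 and -0.22 when Control replicate 1, Control replicate 3 or TMAO replicate 2 was dropped), and the ranges of their summed log2 signal overlapped (9.54 to 9.92 in Control and 9.45 to 9.69 under TMAO). 9 of the 12 hepatocyte markers and 7 of the 9 stellate and fibroblast markers had a lower mean as well, with medians of -0.08 (-0.20 to -0.02 over the fits that drop 1 array) and -0.05 (-0.16 to 0.03, above 0 when TMAO replicate 3 was dropped). Of all 15037 genes 7667 had a lower mean. The part of these markers in the results on ERAD genes was not tested. In RNA from whole cultures, fewer cells of a type and less RNA per cell cannot be told apart. All 8 ERAD members lay at least 3.34 log2 units above the negative controls in both groups and between the 74.0 and 96.0 percentile of all genes by mean signal, so none was near background.

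Sel1l encodes the adaptor that receives clients in the lumen and holds the ligase complex together. Its log2 signals were 9.27, 9.29 and 9.17 on Control replicates 1, 2 and 3, and 9.86, 10.05 and 10.12 on TMAO replicates 1, 2 and 3. The groups were separated by 0.57, several times the spread within either group. The mean was 9.24 ± 0.06 in Control and 10.01 ± 0.13 under TMAO (SD, n = 3 each), a difference of 0.77 ± 0.12 (SE) with a 95% interval of 0.51 to 1.03. Its adjusted p was 0.102 in limma, and it ranked 13 of 15037 genes by p and 46 by size of the difference. It passed when only the brighter 7519 genes were tested (adjusted p of 0.0433) and with a trended, robust estimate of the spread (0.00467), and over all alternatives run its adjusted p lay between 0.00467 and 0.502.

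Syvn1 encodes the ubiquitin ligase itself, which SEL1L serves. Its signals were 7.83, 7.84 and 7.98 on the Control arrays and 8.03, 8.21 and 8.47 on the TMAO arrays, in replicate order. The highest Control array, replicate 3, lay only 0.05 below the lowest TMAO array, replicate 1. The difference was 0.36 ± 0.14 (SE), with a 95% interval of 0.05 to 0.66, and it did not pass (adjusted p of 0.895 in limma).

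Herpud1 encodes the ubiquitin-like membrane protein that binds the ligase and is itself short-lived. Its signals were 8.09, 7.90 and 7.73 on Control replicates 1, 2 and 3, and 9.51, 9.47 and 10.15 on TMAO replicates 1, 2 and 3. The lowest TMAO array lay 1.38 above the highest Control array, and TMAO replicate 3 was the highest of all. The difference was 1.80 ± 0.19 (SE, n = 3 each) with a 95% interval of 1.37 to 2.23, or 2.59-fold to 4.70-fold. It had the smallest p of all 15037 genes (adjusted p of 0.0373 in limma) and the third largest difference. The call was lost when any 1 of the 6 arrays was left out, with adjusted p between 0.0591 (without TMAO replicate 1) and 0.242 (without Control replicate 2), and when all 23188 probe sets were tested (0.0549). The size of the difference was steadier and lay between 1.58 (without TMAO replicate 3) and 1.92 (without TMAO replicate 2).

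The change in Herpud1 was larger than in its partners on the same arrays. The log2 ratio of the Herpud1 signal to the Sel1l signal was -1.18, -1.39 and -1.45 on the Control arrays and -0.35, -0.59 and 0.03 on the TMAO arrays. This within-array ratio moved up by 1.04, and its lowest TMAO value was 0.59 above its highest Control value. Against the other 6 members the ratio moved by 1.39 (Selenos) to 1.74 (Os9). The 95% interval of the Herpud1 difference lay above that of Sel1l, whereas the intervals of Sel1l, Selenos and Syvn1 overlapped each other. In the order of differences Herpud1, Sel1l, Selenos, Syvn1, Derl3, Edem2, Derl1 and Os9, Herpud1 and Sel1l were the only neighbours whose intervals did not overlap.

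**Figure D1:**
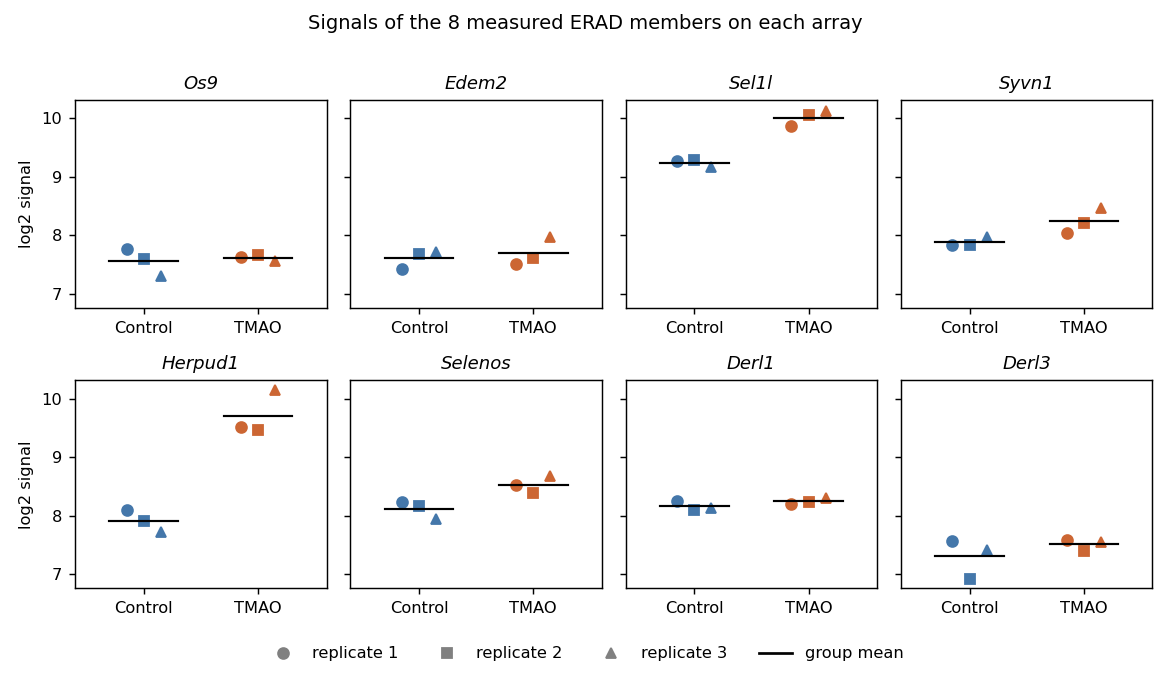
Log2 signal (y axis) of the 8 measured ERAD members on the 3 Control and 3 TMAO arrays (x axis), with a symbol for each replicate number and a bar at the group mean. Herpud1 goes from 7.73 to 8.09 in Control to 9.47 to 10.15 under TMAO, and the groups overlap in Os9, Edem2, Derl1 and Derl3. Signals of different probe sets are not comparable in height.

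SELENOS, a selenoprotein also called VIMP, anchors VCP at the derlins. Its signals were 8.24, 8.17 and 7.94 on the Control arrays and 8.53, 8.38 and 8.68 on the TMAO arrays. The groups stood 0.14 apart, with the lowest TMAO value on replicate 2. The difference was 0.41 ± 0.13 (SE), with a 95% interval of 0.12 to 0.71 and an adjusted p of 0.831 in limma.

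The derlins are multispanning membrane proteins, related to rhomboid proteases but without their activity, through which clients leave the ER. Derl1 was the steadiest member, with 8.25, 8.09 and 8.13 on the Control arrays and 8.20, 8.23 and 8.31 on the TMAO arrays. Its difference was 0.09 ± 0.11 (SE), and its 95% interval, from -0.15 to 0.33, leaves room for a change of up to 1.26-fold. Derl3, the derlin known to be induced by the UPR, had 7.57, 6.92 and 7.41 on the Control arrays and 7.59, 7.39 and 7.55 on the TMAO arrays. Control replicate 2 was low and the other 5 arrays lay close together. The difference of Derl3 was 0.21 ± 0.17 (SE, 95% interval of -0.17 to 0.59), and it came to 0.02 without Control replicate 2. Its probe set carries no chromosome in its identifier, unlike those of the other 7 members.

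OS9 and EDEM2 act first, at the glycan. Os9 had signals of 7.76, 7.60 and 7.30 on the Control arrays and 7.63, 7.66 and 7.57 on the TMAO arrays. The Control arrays spread on both sides of the TMAO arrays. The difference was 0.07 ± 0.14 (SE, 95% interval of -0.24 to 0.38). Edem2, which is known from human cells to be needed for the first mannose trimming step, had 7.43, 7.68 and 7.72 on the Control arrays and 7.52, 7.61 and 7.98 on the TMAO arrays. TMAO replicate 3 alone lay above the Control arrays. The difference was 0.09 ± 0.15 (SE, 95% interval of -0.24 to 0.43). For Derl1, Derl3, Edem2 and Os9 the adjusted p was 0.963 to 0.997 in limma, and the intervals exclude changes as large as that of Herpud1.

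**Figure D2:**
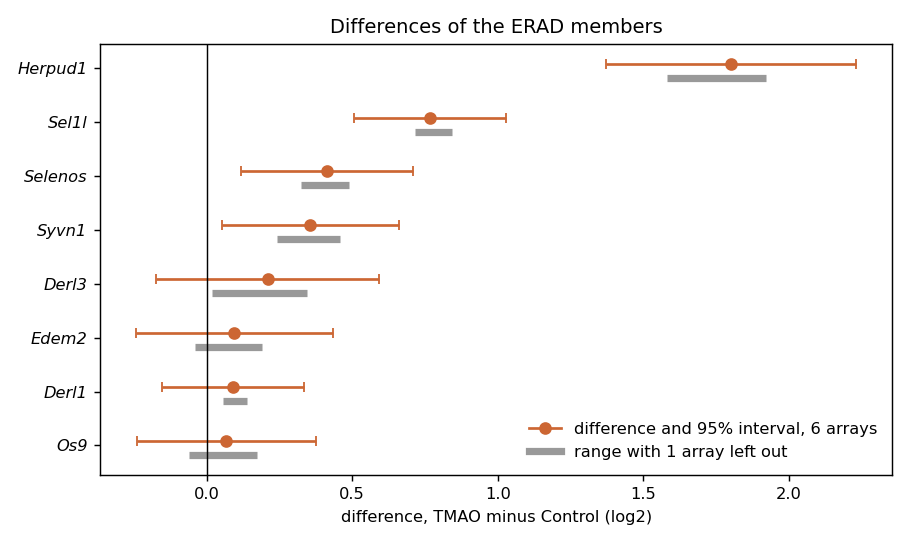
Difference between TMAO and Control (x axis, log2) for each ERAD member (y axis), with its 95% interval from 3 arrays per group and, as a grey bar, the range of the difference when 1 array is left out. Herpud1 lies at 1.80 and Sel1l at 0.77, and the intervals of Derl3, Edem2, Derl1 and Os9 include 0.

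The arrays did not take an equal part in these differences. TMAO replicate 3 was the highest of the TMAO arrays in 6 of the 8 members, all but Derl3 and Os9, and in 36.7% of all genes. The mean deviation of the 8 members from their 6-array means was 0.15, 0.17 and 0.40 on the TMAO arrays in replicate order, and it was -0.15, -0.27 and -0.29 in Control. When TMAO replicate 3 was left out, the median difference of the members was 0.21, and Herpud1 and Sel1l differed by 1.58 and 0.71. The part of this array's high control signals in these values was not tested.

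**Figure D3:**
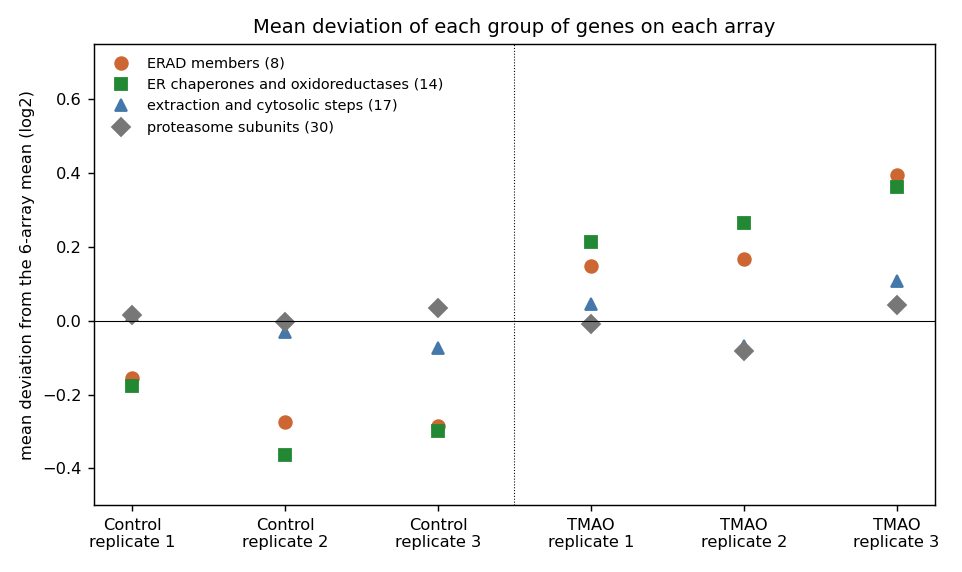
Mean deviation from the 6-array mean (y axis, log2) of 4 groups of genes on each array (x axis). The ERAD members lie at -0.29 to -0.15 on the Control arrays and at 0.15 to 0.40 on the TMAO arrays, and the proteasome subunits stay between -0.08 and 0.04.

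Around the members, 55 further ERAD genes were listed by role, of which 47 were measured. None of the 47 passed the adjusted threshold in limma, and 3 had an unadjusted p under 0.05 with a higher mean (3.01% of all genes did). In 37 the mean was higher (49% of all genes) and in 10 it was lower. Among the recognition and trimming partners 8 of 8 had a higher mean, with a median difference of 0.12. Dnajb9, a cochaperone of BiP that delivers clients to ERAD, had a difference of 1.16 ± 0.26 (SE), and Txndc11, a thioredoxin-domain partner of EDEM proteins, one of 0.64 ± 0.16, with adjusted p of 0.466 and 0.573. Man1b1, a mannosidase of the same glycans, had 0.18 ± 0.11. All 4 ubiquitin-conjugating enzymes had a higher mean, with a median of 0.30. The largest was Ube2g2, with 0.57 ± 0.19 and an adjusted p of 0.843, followed by Ube2g1 with 0.32 ± 0.18 and the membrane-anchored Ube2j1 with 0.28 ± 0.13. Without TMAO replicate 3 the medians of these 2 lists came to 0.04 and 0.17.

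Other membrane ligases and scaffolds had a median difference of 0.02 over 18 genes, 12 of them higher, and this median turned to -0.01 without Control replicate 3. Erlin1, a scaffold of another ERAD ligase, had 0.36 ± 0.18 (SE), and Herpud2, the paralogue of Herpud1, had 0.25 ± 0.14. Faf2, which recruits VCP, had 0.14 ± 0.14, Jkamp had -0.10 ± 0.11 and the ligase Rnf139 had 0.08 ± 0.11. The cytosolic steps from VCP onward had a median of 0.06 over 17 genes, 13 of them higher, and this median was 0.03 when Control replicate 3 was dropped, 0.04 when TMAO replicate 3 was and 0.10 when TMAO replicate 2 was. Yod1, a deubiquitinase that works with VCP, had 0.24 ± 0.15, Usp25 had 0.14 ± 0.11, Rad23b, a shuttle to the proteasome, had 0.13 ± 0.12, and the glycan-binding F-box proteins Fbxo6 and Fbxo2 had 0.14 ± 0.12 and -0.20 ± 0.18. Proteasome subunits, where the route ends, had a median of -0.03, with 10 of 30 higher and 20 lower, and this median was -0.066 when TMAO replicate 3 was dropped, -0.058 when Control replicate 2 was and -0.0050 when TMAO replicate 2 was. The lowest p among them belonged to Psma2, Psma1, Psmb3, Psmc3 and Psmc6, with differences of -0.17, -0.14, -0.13, -0.13 and 0.15. None of the 65 genes of these 3 lists had an unadjusted p under 0.05, and none passed in limma. Of all 15037 genes 452 had such a p with a higher and 373 with a lower mean. In 4 of the 65, each a proteasome subunit, all TMAO arrays lay below all Control arrays, and in 2 they lay above. Over all genes these counts were 801 and 829.

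ER chaperones and oxidoreductases, which fold the clients that ERAD would otherwise remove, had a higher mean in 14 of 14 genes (49% of all genes did). Their median difference was 0.46. 1 of them, Hspa5, passed (0.0266% of all genes), 6 met the 1.5-fold rule (0.579% of all genes) and 11 had an unadjusted p under 0.05 (3.01% of all genes). The call on Hspa5 (adjusted p of 0.0373 in limma) was lost without any 1 of the 6 arrays, with adjusted p of 0.116 to 0.287, and when all 23188 probe sets were tested (0.0549). Its difference was 1.02 ± 0.12 (SE), Pdia4 had 1.10 ± 0.15 and Hyou1 1.06 ± 0.15. These lie between the differences of Sel1l and Herpud1, and differences between single genes were not tested. All 9 regulators listed had a higher mean (49% of all genes did), with a median of 0.34 (0.22 without TMAO replicate 3), and none passed in limma, where 4 had an unadjusted p under 0.05 (3.01% of all genes did). Ddit3, the stress factor CHOP, had a difference of 1.76 ± 0.26 (adjusted p of 0.102). Xbp1 and Atf6, the UPR factors known to drive ERAD genes, had 0.44 ± 0.11 and 0.48 ± 0.17, Atf4 had 0.34 ± 0.12 and Eif2ak3, the kinase PERK, had 0.08 ± 0.17, with adjusted p of 0.581 to 0.997. All of these values come from the same 6 arrays and are not independent of each other.

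**Figure D4:**
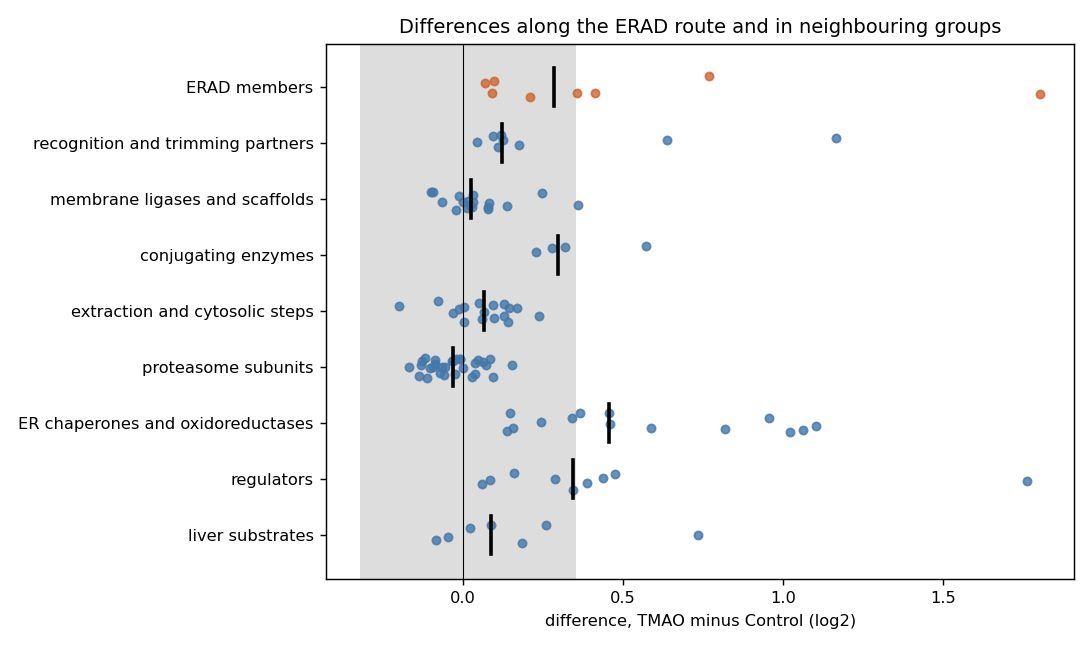
Difference between TMAO and Control (x axis, log2) of each measured gene in 9 lists (y axis), with a black bar at the median of a list. The grey band holds the middle 95% of all 15037 genes, from -0.32 to 0.35, and Herpud1 (1.80) and Sel1l (0.77) lie to its right while the proteasome subunits lie inside it.

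By likeness of pattern, taken as the root mean square distance between the 6 log2 values after each gene was centred on its mean, the genes nearest to Herpud1 among 11277 at or above the 25th percentile of signal were Vldlr (0.21), Ddit3 (0.23) and Cth (0.23). Those nearest to Sel1l were Bcat1 (0.08), Elmod1 (0.09) and Hivep2 (0.10). Because the values were centred but not scaled, genes with unlike TMAO differences lie apart by this distance even where their arrays rise and fall together. The members were not each other's nearest neighbours. For Herpud1 the closest member was Sel1l (0.55), which came 43rd among all genes compared. For Sel1l it was Selenos (0.21), which came 88th. For the remaining members the closest one came 514th (Derl3) to 3144th (Derl1). Edem2, Derl1 and Os9 had differences of 0.09, 0.09 and 0.07, and their closest members came 1542nd, 3144th and 1538th. The nearest genes to Selenos were Btg3, Spopl and Arl6ip1 (0.03 to 0.05), and the nearest to Syvn1 were Yju2b, Yae1 and Mbtps2 (0.05 to 0.06). Mbtps2 encodes the site-2 protease that releases ATF6. The nearest genes were Dkc1, Bop1 and Itgb1bp1 for Edem2, Ei24, Mtbp and Stim2 for Derl1, Ltbp4, Ihh and Gab2 for Derl3, and Pnn, Klhl24 and Agmo for Os9, at distances of 0.02 to 0.07.

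Promoter sequence was set beside these values because Herpud1 and the ER chaperones had higher signals on the same arrays. The 250 bases before the start of each gene were taken from RefSeq (rat build GRCr8), where 6 of the 8 measured members were matched. There were 33469 such windows for 27457 genes, so some genes had more than 1. A gene counted as holding an element if any of its windows did, and for a member the window with the most matches was used. The windows were searched on both strands for 4 elements known from UPR promoters. These were the ER stress response element ERSE (CCAAT and CCACG with any 9 bases between), ERSE-II (ATTGG and CCACG with any 1 base between), the UPR element core (TGACGTG) and the amino acid response element that ATF4 binds (TGATG and AA with any 1 base between). The search was chosen with the results known, and a match is a description of letters, not evidence of binding. Herpud1 and Derl3 held matches, and Sel1l, Syvn1, Edem2 and Selenos held none of the 4. The windows of Herpud1 (chr19:10614708-10614957, minus strand), Derl3 (chr20:12766466-12766715, minus strand) and Sel1l (chr6:116510362-116510611, minus strand) are shown 5′ to 3′, ending at the base before the start, with matches in capitals, to set the member with the largest difference beside one with another of the elements and one with none.
Herpud1: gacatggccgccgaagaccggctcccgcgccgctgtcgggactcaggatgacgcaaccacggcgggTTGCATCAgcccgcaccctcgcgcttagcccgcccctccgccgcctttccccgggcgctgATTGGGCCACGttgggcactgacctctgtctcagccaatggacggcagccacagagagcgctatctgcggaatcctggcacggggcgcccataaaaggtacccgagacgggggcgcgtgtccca
Derl3: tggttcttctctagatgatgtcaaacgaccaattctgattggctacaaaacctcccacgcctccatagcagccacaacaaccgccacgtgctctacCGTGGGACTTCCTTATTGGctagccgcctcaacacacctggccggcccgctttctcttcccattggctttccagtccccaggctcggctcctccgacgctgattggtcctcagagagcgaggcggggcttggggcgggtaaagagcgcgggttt
Sel1l: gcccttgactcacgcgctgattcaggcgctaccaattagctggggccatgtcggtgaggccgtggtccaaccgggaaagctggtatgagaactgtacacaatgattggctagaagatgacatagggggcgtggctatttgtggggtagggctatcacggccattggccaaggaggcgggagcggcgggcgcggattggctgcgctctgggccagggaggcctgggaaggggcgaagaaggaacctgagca
In Herpud1 the amino acid response element lies on the opposite strand 184 to 177 bases before the start, and ERSE-II lies 124 to 114 bases before it. The ERSE of Derl3 lies on the opposite strand 154 to 136 bases before its start.

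ERSE letters were present in 0.0657% of all 33469 windows of this length and ERSE-II letters in 0.0418%, while the UPR element core was present in 1.54% and the amino acid response element in 3.40%. These shares are per window, whereas a gene was counted if any of its windows matched. Counts of genes are therefore not on the same scale as these shares. By the count of genes, 15 measured genes had ERSE letters and 11 had ERSE-II letters. The UPR element core was held by 226 measured genes, of which 59.3% had a higher mean, with a median difference of 0.03. For the amino acid response element these values were 337 genes, 53.1% and 0.009, and 49% of all genes had a higher mean. 6 of the 12 measured chaperones and oxidoreductases with a window had ERSE, and of the regulators only Xbp1 had it. The ERSE sites of Canx and Dnajc3 and a further one of Hsp90b1 are not shown. Canx and Dnajc3 had differences of 0.14 ± 0.10 and 0.45 ± 0.14 (SE). The sites below are written in the direction of the element, with its fixed letters in capitals, to set the ERAD sites beside some of those of the listed genes.
Derl3 ERSE: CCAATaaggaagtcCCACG
Hspa5 ERSE: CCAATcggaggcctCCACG
Creld2 ERSE: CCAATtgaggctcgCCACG
Hsp90b1 ERSE: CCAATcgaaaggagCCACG
Calr ERSE: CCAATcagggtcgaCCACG
Xbp1 ERSE: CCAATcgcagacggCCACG
Herpud1 ERSE-II: ATTGGgCCACG
Hyou1 ERSE-II: ATTGGgCCACG
The ERSE-II of Herpud1 and the Hyou1 site shown have the same letters, and Hyou1 has a further one. Cdc27 and Prkcz hold these letters too, with differences of 0.22 ± 0.12 and -0.04 ± 0.13 (SE), and were named after their values were seen. Of the 15 genes with ERSE letters 13 had a higher mean (49% of all genes did), and the median difference of the 15 was 0.30. Of these 15, 4 met the 1.5-fold rule at an unadjusted p under 0.05, as did 0.579% of all genes. Of the 11 genes with ERSE-II letters 7 had a higher mean, with a median of 0.02, and 3 met that rule, namely Herpud1, Hyou1 and Ggct, an enzyme of glutathione breakdown whose difference was 0.66 ± 0.16 (SE). 8 of the 15 and 2 of the 11 belong to the members and lists already described. Of the other genes 1 with ERSE (Ero1b, an ER oxidase, with 0.67 ± 0.16) and 1 with ERSE-II (Ggct) met the rule. The 7 genes with ERSE letters outside the lists had differences of 0.67, 0.30, 0.20, 0.17, 0.14, -0.11 and -0.23. Ggct and Ero1b were named after their values were seen. Derl3, with an ERSE, had a difference of 0.21, and Sel1l, with no match in its window, had 0.77.

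**Figure D5:**
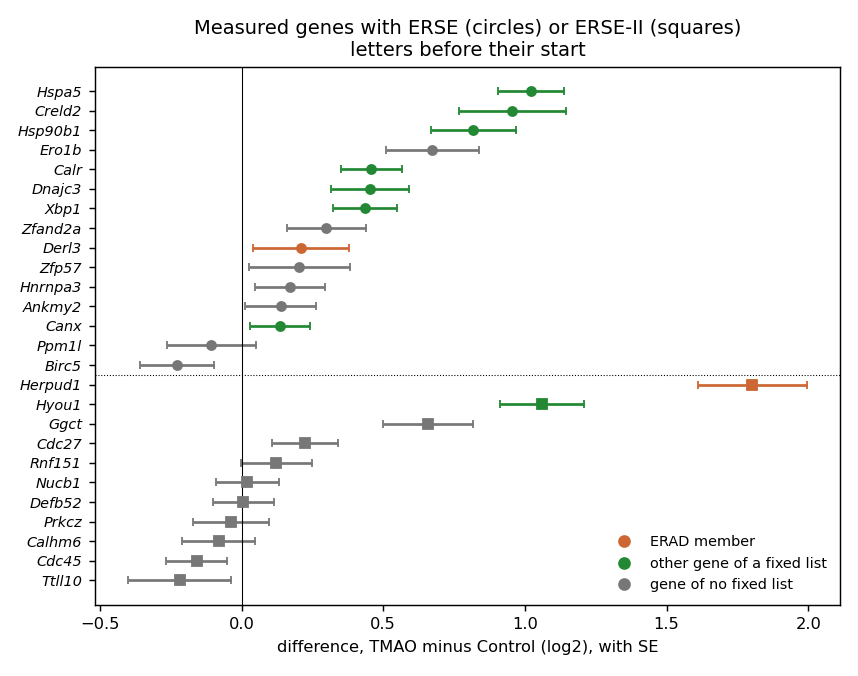
Difference between TMAO and Control (x axis, log2, with SE) of the 15 measured genes with ERSE letters (circles) and the 11 with ERSE-II letters (squares) in the 250 bases before their start (y axis). Herpud1 (1.80) and Hyou1 (1.06) lead the ERSE-II genes, whose median is 0.02, and Hspa5 (1.02) leads the ERSE genes, whose median is 0.30.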

How the data were processed

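The authors deposited 1 value table of log2 signals, with 1 value per probe set and array, and these log2 values were used as deposited. How background, normalization and probe summary were handled is not given in the sources used here. Per the submitters' processing notes limma was used, for a purpose they do not state. A second table has 6 value columns that no label ties to a sample, and they were not used. Of 24871 probe sets 1683 controls were left out, 15049 carried 1 symbol in the platform annotation and 8139 did not. Any entry with more than 1 symbol was counted among the 8139. All symbols were looked up in RefSeq by gene identifier, and 0 changed. Keeping the probe set of highest mean signal for each symbol left 15037 genes.

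The 2 groups were compared with limma (version 3.58.1, R 4.3.3), with lmFit on all genes, the group as the only term, eBayes, two-sided tests and Benjamini-Hochberg adjustment over all 15037 genes at 0.05. A positive difference is a higher log2 signal under TMAO. The number of arrays limits the precision. No filter on low values was applied, and all 8 members entered the fit. The members, the lists, the rule for naming genes and the alternatives were chosen with earlier results of these data known. The rule took all members, the 3 genes of smallest p in each other list (5 in lists of over 15 genes), the 3 genes nearest in pattern to each member, and Eif2ak3, Atf4, Atf6, Xbp1 and Ddit3. In lists of cell markers no gene is named, and only counts, summed signals and median differences are given. Genes with promoter elements were named after their values were seen. On simulated data with 200 changed genes among 15037, the fit recovered 54.2% of 1.5-fold, 98.1% of 2-fold and 100% of 3-fold changes, and 5.81% of its calls were false. The simulated noise was independent between genes and arrays, with no array lying apart as TMAO replicate 3 does. On the real arrays 4 genes passed, and Ddit3, with a 3.39-fold higher mean, did not, so these shares need not hold there.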

Additional observations from a re-analysis of the deposited data

How the results depend on the processing

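The alternatives were listed with earlier results of these data known. Herpud1 and Sel1l were the 2 members past 1.5-fold at an unadjusted p under 0.05 in every alternative run, and the median difference of the members lay between 0.21 and 0.34 with 1 array left out and between 0.26 and 0.32 in the others. The 4 genes past the adjusted threshold became 0 with each probe set tested on its own, 9 among the brighter genes, 30 with trend and robust estimation, 7 with array weights and 0 to 2 with 1 array left out. The 1 member past it became 2 (Herpud1 and Sel1l) among the brighter genes and with trend and robust estimation, 0 with each probe set tested on its own and 0 (0 to 0) with 1 array left out. With the replicate number as a block 0 genes and 0 members passed, and Herpud1 and Hspa5 each had an adjusted p of 0.207. Correlations between the deviations of arrays with equal numbers were 0.13, 0.10 and -0.01. TMAO replicates 1 and 2 each correlated best with the Control array of their own number, and TMAO replicate 3 correlated best with Control replicate 2 (0.03). The numbers were not taken to pair the samples. The labels do not say whether equal numbers share an animal, and these values do not settle it. With 1 array left out Os9 ran from -0.060 (without Control replicate 3) to 0.172 and Edem2 from -0.042 (without TMAO replicate 3) to 0.188, and no other member changed sign. The cause of these shifts was not tested. No alternative moved the median of all genes by more than 0.01. The number of arrays limits what a small difference can show.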

Other observations

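Proteins that hepatocytes are known to remove through ERAD were looked at beside the machinery. Of 7 measured genes for such substrates 5 had a higher mean (49% of all genes did). The median difference was 0.09, which turned to -0.02 without Control replicate 2 and without TMAO replicate 3. None passed in limma, where 1 had an unadjusted p under 0.05 with a higher mean (3.01% of all genes did). That gene was Insig1, the sterol-regulated ER protein that the ligase gp78 degrades, with a difference of 0.73 ± 0.23 (SE) and an adjusted p of 0.829. Sqle, an enzyme of cholesterol synthesis, had 0.26 ± 0.14, and Dgat2, an enzyme of triglyceride synthesis, had 0.18 ± 0.23.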
